A study of Mus musculus with 30 samples.

Results

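The genes that make dopamine, pack and recapture it, and receive it were examined in whole eyes and hypothalamic blocks of wild-type (WT) and Per3-/- mice. The set held 7 genes of the 28146 gene names on the array, taken by name: Th and Ddc for synthesis, Slc18a2 for vesicular packaging, Slc6a3 for reuptake, and the receptors Drd2, Drd4 and Drd5. They were measured by 12 probes, which were matched between the eye and hypothalamus files by probe name.

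The animals were adult males, WT and Per3-/- littermates on a C57Bl/6J background, with the targeted Per3 allele carried in every cell, and both genotypes shared the same light history. All mice went through 17 cycles of 3.5 h light and 3.5 h dark and were killed in hour 2 of the last light period. The paper places that period in the middle of the active phase of their earlier circadian cycle. RNA of 1 mouse and 1 tissue was hybridised to each 1-colour Agilent array of 60-base probes. There were 7 WT and 7 Per3-/- eye arrays and 8 WT and 8 Per3-/- hypothalamus arrays, each tissue spread over 4 slides that held both genotypes, and the eye arrays of WT mouse 2 and Per3-/- mouse 1 were not analysed here. Eye and hypothalamus were on different slides, so tissue and slide cannot be told apart. The hypothalamic piece was a block cut around the optic chiasm, and the eye was taken whole, with cornea, lens, iris and pigmented layers as well as retina.

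Levels are given as log2 of the probe's processed signal relative to the 75th percentile of its own array, so that 0 is the level at the 75th percentile and a difference of 1 is a doubling. Such levels compare mice on 1 probe and never 1 probe with another. In tissue pieces, fewer cells of a type and less RNA per cell cannot be told apart. Each array read 67.9% to 80.7% of its probes clearly above the local background. The Per3 probe itself, read first to check the labels, was lower in the knockout hypothalamus (-3.97 ± 0.21 against -3.46 ± 0.15, SD, n = 8 each), where 7 of 8 Per3-/- mice lay under the whole WT range (limma adjusted p = 0.067), and in the eye it was -3.58 ± 0.52 against -3.13 ± 0.39 (n = 7 each, adjusted p = 1 in limma). The probe was still well above background on all knockout arrays, and whether it lies inside the targeted part of Per3 was not tested.

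Dopamine is made from tyrosine by tyrosine hydroxylase (Th), the rate-limiting enzyme, and then by aromatic L-amino acid decarboxylase (Ddc), which also serves serotonin synthesis. The vesicular transporter Slc18a2 (VMAT2) loads it into vesicles and the plasma membrane transporter Slc6a3 (DAT) takes it back up. In the retina dopamine comes from a sparse class of amacrine cells and is released in the light. The hypothalamus holds several dopamine cell groups of its own, among them the arcuate cells that restrain prolactin release through Drd2 on pituitary lactotrophs. Drd2 and Drd4 are D2-class receptors, which lower cyclic AMP, and Drd5 is a D1-class receptor, which raises it. In rodents Drd4 is the photoreceptor dopamine receptor, and its transcript is known to follow the light-dark cycle there, higher at night. All mice here were killed at the same time, in light that fell in their earlier active phase, so no cycle was measured.

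The 4 probes shown here carry the results on synthesis, on Drd4 and on the split between the Drd5 probes. Each is a 60-base oligo, printed 5′ to 3′ in the transcript's sense and all in lower case, and positions are those the hypothalamus files give on mouse build mm9. The Th probe, at chr7:150079917-150079976 on the minus strand, starts at base 1278 of the transcript and was spotted 10 times on each array. The lead Ddc probe lies at chr11:11715320-11715379 (minus strand), the lead Drd4 probe at chr7:148480683-148480742 (plus strand) and the second Drd5 probe at chr5:38711564-38711623 (plus strand).
Th: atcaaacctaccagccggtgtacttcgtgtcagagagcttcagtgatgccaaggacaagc
Ddc: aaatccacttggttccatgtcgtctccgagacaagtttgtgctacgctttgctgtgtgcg
Drd4: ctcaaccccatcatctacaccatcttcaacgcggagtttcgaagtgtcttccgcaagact
Drd5, second probe: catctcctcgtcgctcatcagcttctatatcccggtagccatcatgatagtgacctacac

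Exon and untranslated-region annotation of mm9 was not used here. For the 5 genes with a pair of probes, the probe with the higher mean level over the 30 arrays is called the lead probe.

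The first comparison set the eye against the hypothalamus, to ask where each step of dopamine handling was transcribed. Synthesis, packaging and reuptake were lower in the eye, and Drd4 was far higher there. In WT mice all 12 probes passed the test, but so did 75.6% of the 41174 probes on the array (42.1% higher and 33.6% lower in the eye), so passing alone says little about these genes and the sizes carry the description. Of the 12 probes, 5 were higher and 7 lower in the eye, with a median difference of -0.98 on the log2 scale beside 0.16 over all probes. The groups did not overlap for 9 of the 12, beside 56.2% of all probes. In Per3-/- mice all 12 again passed in the same directions, beside 77.8% of all probes (44.4% higher and 33.4% lower), and 9 did not overlap, beside 55.1%. The share of higher calls depended on the scaling, at 55.6% of all WT calls as scaled here and 39.6% when arrays were set to equal medians.

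**Figure D1:**
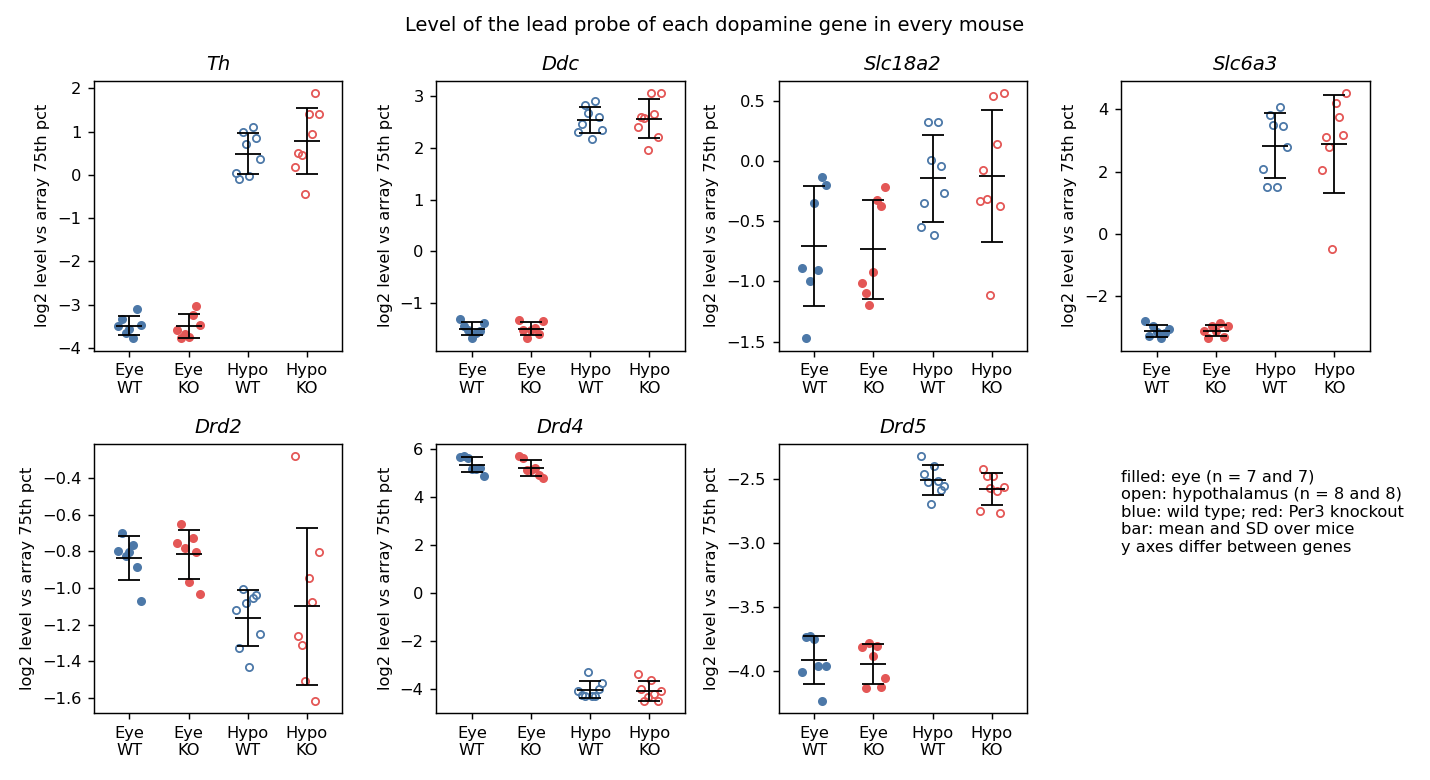
Level of the lead probe of each of the 7 genes in every mouse (y axis, log2 relative to the array's 75th percentile; x axis, group), with the mean and SD over mice as bars. Th, Ddc and Slc6a3 sit lower in all 14 eyes than in all 16 hypothalami, Drd4 the other way round, and the blue (WT) and red (knockout) points overlap in every pair.

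Th was lower in every eye than in every hypothalamus. In WT eyes its level ran from -3.76 through a median of -3.50 to -3.11, and in WT hypothalami from -0.09 through 0.54 to 1.1. The difference was -3.99 (SE 0.24, limma adjusted p = 3.43e-15), a 15.9-fold lower level in the eye, and -4.30 in Per3-/- mice. The 10 Th spots of an array agreed closely, with an SD between spots of 0.03 to 0.06 in the hypothalamus and 0.05 to 0.15 in the eye, less than its SD between mice in either tissue (0.24 and 0.63).

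Ddc followed Th. Its lead probe ran from -1.69 to -1.32 in WT eyes (median -1.53) and from 2.18 to 2.92 in WT hypothalami (median 2.54), again with no overlap. The eye was 16.5-fold lower (-4.05, SE 0.13, adjusted p = 2.86e-22 in limma). Its second probe gave -5.59, but was well above background on 2 of 7 WT and 3 of 7 knockout eyes.

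Of the 7 lead probes, that of Slc6a3 was the lowest in the eye relative to the hypothalamus, 61.6-fold (-5.94, SE 0.48, adjusted p = 2.81e-12 in limma). The hypothalamic level behind that fold ranged 5.9-fold between WT mice and 32.1-fold over all 16 mice. The part of dissection in this spread was not tested. WT eyes lay between -3.33 and -2.77 (median -3.14), within a narrow band, while WT hypothalami ran from 1.49 through 3.12 to 4.06. All 14 eye arrays were well above background, so a low Slc6a3 signal was read in every eye.

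The probes for Slc18a2 disagreed on the size of the difference. The second probe behaved like Th and Ddc, at -2.43 to -2.18 in WT eyes and 0.77 to 1.75 in WT hypothalami, an 11.2-fold lower level in the eye (-3.49, SE 0.17, adjusted p = 9.8e-18 in limma). The lead probe, whose target lies close by on the same chromosome (chr19:59369846-59369906 and chr19:59370102-59370161 on mm9), gave only 1.48-fold (-0.56, SE 0.23, adjusted p = 0.0259 in limma), and its WT groups overlapped. That smaller call was lost without WT mouse 3 (-0.37, adjusted p = 0.150 in limma), mouse 4 (-0.49, adjusted p = 0.077) or mouse 6 (-0.46, adjusted p = 0.092), and in Per3-/- mice without mouse 5 (-0.49, adjusted p = 0.066). With normexp background correction the WT value was -0.49 (limma adjusted p = 0.051). These probes give no single size for the Slc18a2 difference.

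Among the receptors, Drd4 stood apart. WT eyes lay at 4.88, 5.23 and 5.70 (lowest, median and highest) and WT hypothalami at -4.30, -4.16 and -3.28. The lead probe was 665-fold higher in the eye in WT (9.38, SE 0.18, adjusted p = 2.29e-27 in limma) and 628-fold higher in Per3-/- mice (9.30). Only 116 of the 41174 probes had a larger eye excess in WT. The second Drd4 probe was well above background in 0 of 8 WT hypothalami, which gives at least 256-fold in WT (measured means 1.53 and -7.36, adjusted p = 4.8e-21 in limma), where the floor is each array's lowest signal well above background or the probe's own, whichever is higher.

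Beside Drd4, all 15 photoreceptor markers were called higher in WT eyes, against 42.1% of all probes. Their median difference was 10.88, beside 0.16 over all probes. Peripherin 2 (Prph2), a rim protein of the outer segment disc, differed by 15.56. The rod channel subunit Cnga1 was at least 4496-fold higher. The summed level of the 15 markers, in multiples of an array's 75th percentile, was 736 to 916 in the 14 eyes and 0.191 to 0.306 in the 16 hypothalami. Photoreceptor signal was thus high in every eye and near the bottom of the scale in every hypothalamus.

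Drd2 differed little between the tissues. Its lead probe ran from -1.07 to -0.70 in WT eyes and -1.43 to -1.01 in WT hypothalami, 1.25-fold higher in the eye (0.33, SE 0.13, adjusted p = 0.0204 in limma), and the second probe gave 1.51-fold (0.60). With arrays set to equal medians the lead probe turned to -0.10 (adjusted p = 0.521) and the second fell to 0.17 (adjusted p = 0.152), and a shift of all probes from 0.16 to -0.27 between those scalings was of the same size as the Drd2 difference. No direction is given for Drd2. The lead call in WT was also lost without WT mouse 5 (0.28, adjusted p = 0.065 in limma), and that in Per3-/- mice without any 1 of mice 2, 3, 4, 6 or 7 (0.21 to 0.28, limma adjusted p from 0.072 to 0.127).

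The probes for Drd5 pointed in opposite directions. The lead probe was 2.64-fold lower in the eye (-1.40, SE 0.08, adjusted p = 1.87e-16 in limma), with WT eyes at -4.23 to -3.73 and WT hypothalami at -2.69 to -2.32. The second probe, printed above, was 2.76-fold higher in the eye (1.46, SE 0.25, adjusted p = 6.02e-06 in limma), at -5.25 to -3.10 against -6.21 to -5.10, near the lower end of what the arrays measured. The lead probe starts at base 2530 of the transcript and the second at base 816. Neither direction changed under any scaling tried, so the tissue difference of Drd5 as a gene stays undetermined. The other D1-class receptor, Drd1, was higher in the eye (0.94, adjusted p = 4.65e-08 in limma), and the D2-class receptor Drd3 was lower (-1.57, adjusted p = 1.63e-05).

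**Figure D2:**
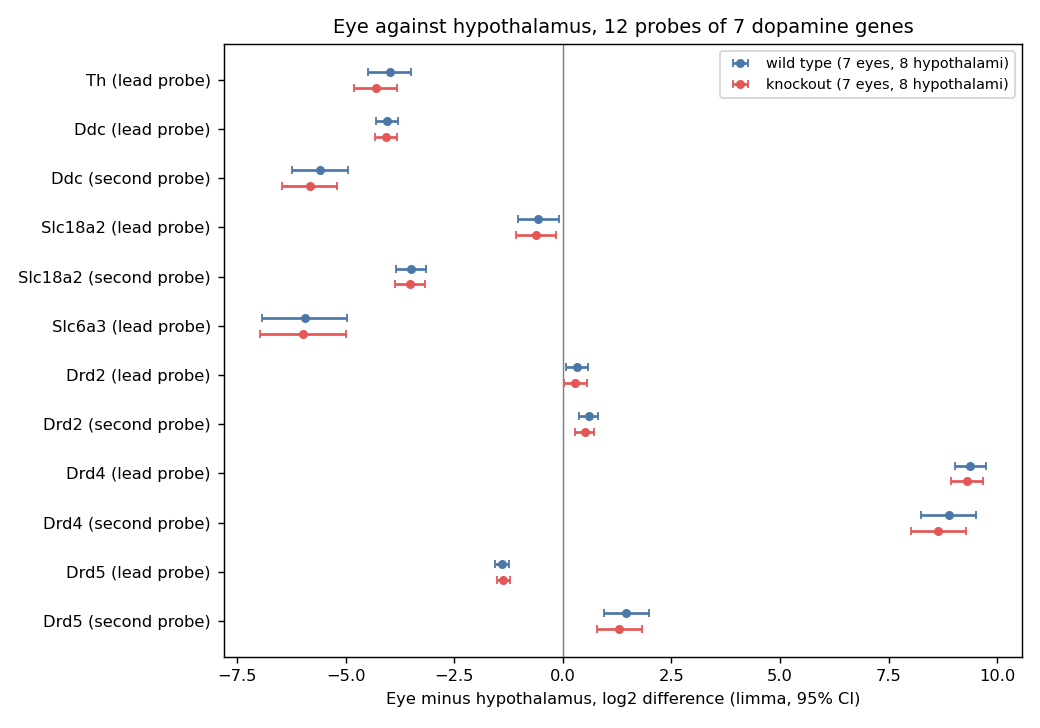
Eye minus hypothalamus difference (x axis, log2) of each of the 12 probes in WT and knockout mice, with 95% confidence intervals from limma. Drd4 lies near 9, Th, Ddc, Slc6a3 and the second Slc18a2 probe lie at -3.49 or lower, Drd2 lies close to 0, and the Drd5 probes fall on opposite sides of 0.

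The rest of the pathway was read from fixed lists of 47 genes, 40 of them beside the 7. Of those 40, 12 were higher, 24 lower and 4 not called in WT eyes against WT hypothalami, with a median difference of -1.11 beside 0.16 over all probes. Over all probes 42.1% were called higher and 33.6% lower in the same comparison. Receptor signalling genes were mostly lower in the eye (14 of 16, 1 higher and 1 not called), with the cyclic nucleotide phosphodiesterase Pde10a lowest at -4.46. The exception was Gnb5 (3.11), the G protein beta subunit that partners RGS proteins. The norepinephrine transporter Slc6a2 was at least 5.22-fold higher in the eye, a bound, since 0 of 16 hypothalamus arrays read it well above background. Of the transcription factors that mark midbrain dopamine neurons, Foxa2 was lower in the eye (measured difference -4.84, with 2 of 7 WT eyes well above background) and Pitx3, which also serves the lens, was higher (3.0).

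Of 10 amacrine markers 4 were higher and 6 lower in the eye, among them the eye and amacrine transcription factor Pax6 (4.90), Tfap2a (3.06) and the GABA-synthesis enzyme Gad2 (-4.14), which the hypothalamus expresses strongly as well. Among 8 pigmented and ciliary markers 7 were higher, led by the melanocyte genes Mlana (11.91) and Dct (10.42) and by the retinoid isomerase Rpe65, which was at least 209-fold higher. Of 11 striatum markers 4 were higher and 6 lower in the eye, among them Pde10a and Gpr6 (-2.25), both lower. These marker counts stand beside 42.1% of all probes called higher and 33.6% called lower in WT eyes.

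The second comparison set Per3-/- against WT within each tissue, the question of the study. None of the 12 probes passed the test in the eye or in the hypothalamus, by limma or by the methods' t-test, and none had an unadjusted limma p under 0.05, beside 1.8% of all probes in the eye and 2.82% in the hypothalamus. Over all probes 0.0194% passed in the eye (8 of 41174) and 0.0413% in the hypothalamus (17), so a count of 0 among 12 is near the background. The lowest limma adjusted p was 1 for the eye and 0.991 for the hypothalamus.

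In the eye the 7 lead probes differed between genotypes by -0.13 to 0.02, with a median of -0.02 beside 0.00 over all probes. Drd4 was at 5.22 ± 0.34 in knockout and 5.36 ± 0.32 in WT eyes (SD, n = 7 each), a difference of -0.13 with a 95% interval of -0.50 to 0.23 (two-sided exact permutation p = 0.432, and 0.204 with labels permuted within slides). Within slides 1 to 4 its knockout minus WT difference was 0.03, -0.29, 0.00 and -0.19. Th was at -3.50 ± 0.28 against -3.49 ± 0.22, with an interval of -0.30 to 0.26, and Ddc at -1.51 ± 0.12 against -1.50 ± 0.13, with an interval of -0.16 to 0.16. The interval for Drd2 was -0.14 to 0.18.

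In the hypothalamus the widest gap was that of Th, at 0.79 ± 0.76 in knockout and 0.49 ± 0.48 in WT mice (SD, n = 8 each). The difference of 0.30 had an interval of -0.34 to 0.94 (two-sided exact permutation p = 0.362). It was not even in direction across slides, at 0.36, -0.84, 0.64 and 1.03, and without slide 2 it was 0.68 (limma adjusted p = 0.998). Slc6a3 was at 2.89 ± 1.58 against 2.84 ± 1.03, with an interval of -1.29 to 1.39, so a difference of 1 in either direction was not detectable with these mice. Drd5 had the narrowest interval, -0.20 to 0.06 around -0.07. Over the 14 exact permutation tests the adjusted p-values were all 0.993.

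**Figure D3:**
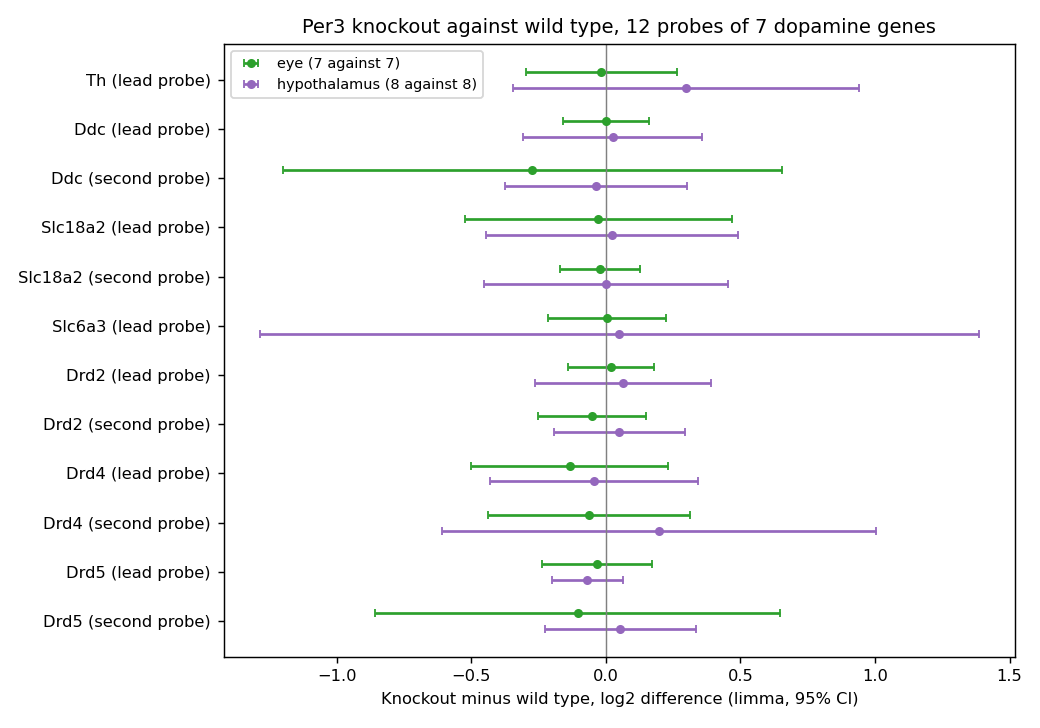
Knockout minus WT difference (x axis, log2) of each of the 12 probes in eye and hypothalamus, with 95% confidence intervals from limma. All 24 intervals include 0, and the widest is that of Slc6a3 in the hypothalamus, followed by the dim second probes of Ddc and Drd5 in the eye and of Drd4 in the hypothalamus.

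The difference of the genotype effect between the tissues was called for 0 of the 12 probes, with none under an unadjusted p of 0.05 and 0.00486% of all probes called. Of the 40 other pathway genes none was called in either tissue or in this difference. In each of the 3 comparisons 2 of the 40 had an unadjusted limma p under 0.05. Over all 41174 probes 743 did so in the eye, 1161 in the hypothalamus and 909 in the difference. The 2 in the hypothalamus were Drd1 (-0.36) and Pde10a (-0.17), both abundant in the striatum (limma adjusted p = 0.991 for each). Of the 11 striatum markers, Drd1 and Pde10a among them, none was called and 3 had an unadjusted limma p under 0.05 there. Their median was -0.18 beside -0.01 over all probes. Their summed level ran from 27.2 to 42.7 in knockout and from 30.8 to 44.5 in WT hypothalami, and the part of striatal tissue in the Drd1 difference was not tested. Among 12 light-driven and clock output genes none was called in either tissue, and 1 in each tissue had an unadjusted limma p under 0.05. In the eye 11 of the 12 were lower in knockout, with a median of -0.12 beside 0.005 over all probes. In the hypothalamus 6 were lower and 6 higher, with a median of -0.0002 beside -0.01.

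Although the genotypes did not separate, the mice did. In the hypothalamus Slc6a3 ran from -0.50 in Per3-/- mouse 4 to 4.51 in Per3-/- mouse 8, a 32.1-fold range, with a median of 3.14 over the 16 mice. Only 36 of 27151 probes well above background on all 16 arrays had a larger SD. Th ranged 5.01-fold, from -0.44 in the same Per3-/- mouse 4 to 1.89 in Per3-/- mouse 7. Slc18a2 ranged 3.19-fold on its lead probe (-1.11 to 0.56) and 3.15-fold on its second, and Ddc 2.15-fold (1.95 to 3.06). In both of the latter Per3-/- mouse 4 was again the lowest. In the 14 eyes the same lead probes of Th, Slc6a3 and Ddc ranged 1.67-fold, 1.49-fold and 1.29-fold. Slc18a2 ranged 2.54-fold there on its lead probe and 1.33-fold on its second.

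These 4 genes moved together from mouse to mouse in the hypothalamus. With the genotype and slide means removed, Ddc and Slc18a2 correlated at r = 0.98 (Spearman rho = 0.95), Slc18a2 and Slc6a3 at r = 0.93 (rho = 0.91), Ddc and Slc6a3 at r = 0.89 (rho = 0.91), and Th and Slc6a3 at r = 0.85 (rho = 0.76). Over the 42 relations computed, 21 in each tissue, 7 passed in the hypothalamus on Pearson's r and 8 on Spearman's rho, and 0 in the eye, where 1 had an unadjusted permutation p under 0.05 on r (Th and Drd2, r = 0.64, permutation p = 0.013). All 6 pairs among Th, Ddc, Slc18a2 and Slc6a3 were among those that passed in the hypothalamus. How many pairs of other probes would pass the same test was not computed, so these counts have no background beside them. The permutation p for r was 1e-05 for the 3 pairs of Ddc, Slc18a2 and Slc6a3, the smallest that 100000 permutations can give (adjusted p = 0.00014), and 3e-05 for Th and Slc6a3. The permutations do not allow for the means that were removed, so these p-values are somewhat too small.

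The relations of Th were the weaker ones. Without Per3-/- mouse 4 and WT mouse 5, the mice farthest from the Th median, Th kept r = 0.65 with Slc6a3, 0.49 with Slc18a2 and 0.37 with Ddc. Those lower values held Per3-/- mouse 7, and with that mouse left out too they were 0.93, 0.95 and 0.93. The 3 pairs among Ddc, Slc18a2 and Slc6a3 kept 0.80 to 0.96 when their 2 farthest mice were left out. Leaving out each mouse in turn, the 3 pairs of Ddc, Slc18a2 and Slc6a3 passed in all 16 cases, with r of 0.85 or higher. Th and Ddc passed in 12 of 16, with r = 0.49 without Per3-/- mouse 4. Per3-/- mouse 7 held the highest Th (1.89) with middling Slc6a3 (3.18) and low Ddc (2.22), and without it Th and Ddc reached r = 0.97.

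**Figure D4:**
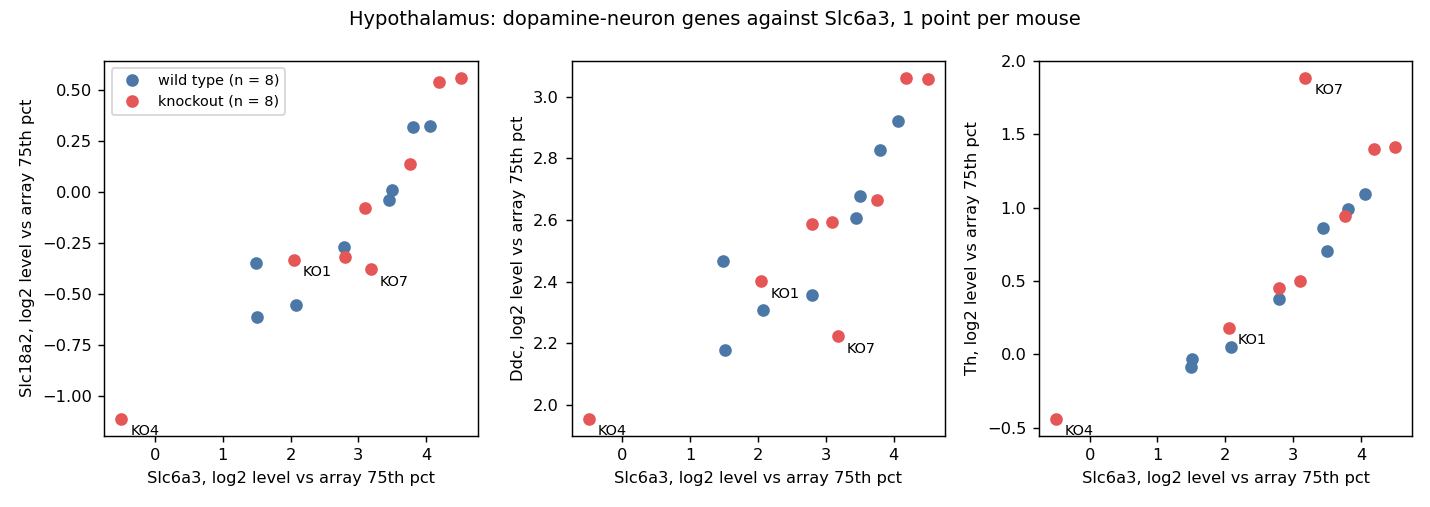
Level of Slc18a2, Ddc and Th (y axes) against Slc6a3 (x axis) in each of the 16 hypothalami, all as log2 relative to the array's 75th percentile, WT in blue and knockout in red. The points rise along 1 line in each panel, with Per3-/- mouse 4 at the lower left and Per3-/- mouse 7 above the line for Th.

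Chosen after these values were seen, the probes most like Slc6a3 over the 16 hypothalami were listed, as a description with no test. On genotype and slide residuals the nearest of 27150 others was Foxa2 (r = 0.96), followed by Aldh1a7 (0.95), both Slc18a2 probes (0.94 and 0.93) and the growth factor receptor Ret (0.92). Foxa2 is a transcription factor of midbrain dopamine neurons. Of the 8 such factors on the fixed list, 5 were well above background on all 16 arrays. Foxa2, Pitx3, Foxa1 and En2 correlated with Slc6a3 at 0.96, 0.92, 0.87 and 0.81, and Nr4a2 at 0.39. Lmx1b, well above background on 13 of the 16 arrays, correlated at 0.08. The dim Lmx1a and En1 (1 and 0 of 16 arrays well above background) were at 0.56 and 0.19. Foxa2 itself ran from -4.54 in Per3-/- mouse 4 to -1.11 in Per3-/- mouse 8, the same mice at the ends as for Slc6a3. The arrays share slides and scaling, and the part of dissection in this spread was not tested.

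Drd2 correlated with Ddc, Slc18a2 and Slc6a3 at r = 0.58, 0.58 and 0.49, none of which passed, while Slc18a2 and Drd2 passed on Spearman's rho (0.67, permutation p = 0.00499, adjusted p = 0.0349). Without Per3-/- mouse 1 these were r = 0.88, 0.85 and 0.74, and all 3 passed. With each mouse left out in turn, the 3 pairs passed on r in only 2, 2 and 1 of 16 cases. Drd2 correlated with Drd4 in the hypothalamus at r = 0.65 (rho = 0.66, permutation p = 0.00662, adjusted p = 0.0397). Both were at or near their highest in Per3-/- mouse 1, where Drd2 read -0.28 against a next highest of -0.81. That mouse also held by far the most pituitary transcript, with prolactin (Prl) at 8.15, growth hormone (Gh) at 8.21 and Cga, the subunit shared by the glycoprotein hormones, at 7.60. The next highest levels, 4.68, 3.6 and 1.56, were all in WT mouse 5. The summed level of the 8 pituitary markers was 4.29 to 1199 in knockout and 6.66 to 49.0 in WT hypothalami. The Drd2 and Drd4 relation passed in 6 of 16 cases with 1 mouse left out, and was 0.47 without Per3-/- mouse 1, and the Drd2 genotype difference went from 0.06 to -0.05. Slc6a3 in that mouse was 2.05, below the median.

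In the eye several probes varied with the slide, Drd4 among them. The second Drd5 probe (SD 0.67 over the 14 eyes) lay at -5.25 to -4.76 on slide 2 and -3.64 to -3.10 on slide 4, and the SD of the lead Slc18a2 probe was 0.44. The lead Drd4 probe read 5.69 and 5.72 on slide 1, 5.12 to 5.70 on slide 2, 5.13 to 5.23 on slide 3 and 4.79 to 5.23 on slide 4. The second Drd4 probe gave 2.01 to 2.09, 1.40 to 1.84, 1.30 to 1.44 and 1.1 to 1.19, so both probes put slide 1 above slide 4, and slide 2 lay above slide 4 on the second probe, while on the lead probe Per3-/- mouse 4 of slide 2 (5.12) was below WT mouse 7 of slide 4 (5.23). Their correlation over the 14 eyes was 0.92 with genotype removed and 0.62 with slide removed as well. The slide follows the mouse number, so slide and the order in which mice were numbered cannot be told apart. The SD of Drd4 over the 14 eyes, 0.33, was above that of each of the 15 photoreceptor markers (0.12 to 0.21).

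**Figure D5:**
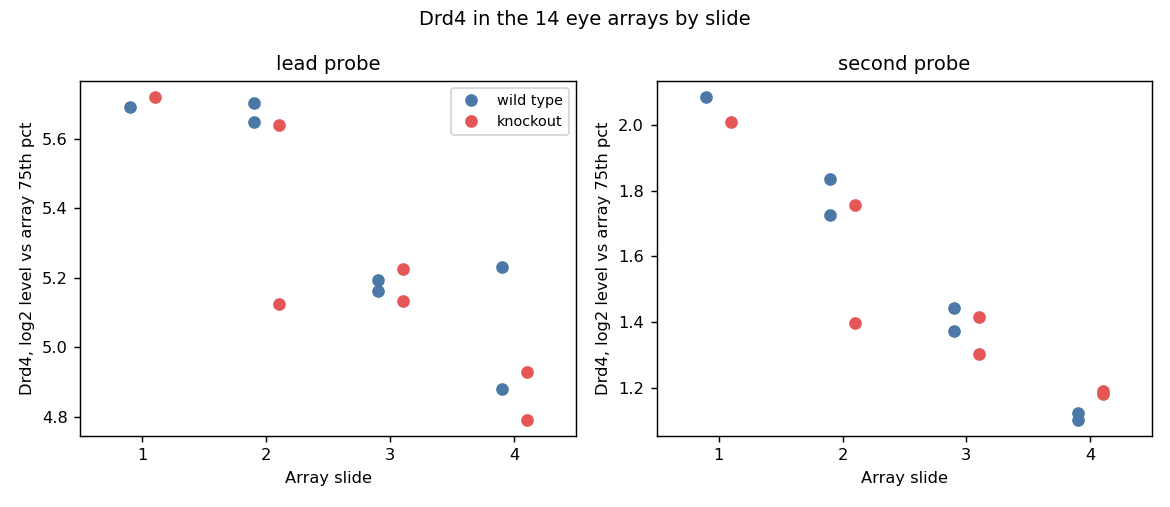
Drd4 level in the 14 eyes (y axis, log2 relative to the array's 75th percentile) by array slide (x axis), for the lead and the second probe, WT in blue and knockout in red. Both probes are highest on slide 1 and lowest on slide 4, and each slide holds both genotypes. The lead probe puts both knockout eyes below both WT eyes on slide 2. On slide 4 the second probe puts both knockout eyes above both WT eyes.

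With genotype and slide removed, the mean of the photoreceptor markers correlated with Drd4 at 0.78 over the 14 eyes, as a description. The 5 probes most like Drd4 of 27883 were those of Gorasp2 (0.93), 2310047B19Rik (0.92), Loh12cr1 (0.91), Gm5910 (0.90) and Ins2 (0.90), and the probe least like it was the heat-shock gene Hspa1a (-0.95). When only genotype was removed, Adam7 and Mzf1 came first (both 0.96), so which genes are nearest depends on whether slides are set level. The 5 most like Th were Anp32a (0.95), D11Bwg0517e with its pair of probes (0.95 and 0.94), Accn4 (0.94) and Dmwd (0.93).

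No pair of lead probes passed in the eye once slides were set level. With genotype alone removed, Slc18a2 and Drd4 gave r = -0.72 (permutation p = 0.005, adjusted p = 0.029), which became 0.05 with slide removed, so the relation did not hold within slides. Drd2 and Drd4 gave r = 0.71 (permutation p = 0.00435, adjusted p = 0.029), and 0.49 with slide removed (rho = 0.63, adjusted p = 0.207 for r and 0.0752 for rho, by permutation). The lead Slc18a2 probe ran from -1.47 to -1.0 on slide 2 and from -0.37 to -0.13 on slide 4, whereas its second probe was at -2.33 to -2.22 and -2.43 to -2.19 there. In the eye these probes for 1 gene correlated at -0.39, against 0.98 in the hypothalamus (genotype and slide removed). For Ddc the corresponding values were -0.08 and 0.95, and for Drd2 -0.07 and 0.91.

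The promoters of the 7 genes were searched for motifs in RefSeq sequence of build GRCm38.p6, from 250 bases before to 50 after the start. Any part of these motifs in the shared movement of Th, Ddc, Slc18a2 and Slc6a3 was not tested. All 7 genes matched, with 8 promoters, 2 of them for Ddc. The motifs searched, on both strands, were TGACGTCA (the cyclic AMP response element), CACGTG (the E-box bound by clock proteins), TAATCC (the core bound by the photoreceptor factor CRX), TGCTGA (a partial NRL site) and GTAAACA (a forkhead site). The cyclic AMP element was in Th and Slc18a2, and in 1.79% of 32851 promoters. The stretches that hold it are printed with the element in capitals, at chr7:142900013-142900060 (minus strand) and chr19:59260854-59260901 (plus strand).
Th: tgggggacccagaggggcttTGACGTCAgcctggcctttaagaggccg
Slc18a2: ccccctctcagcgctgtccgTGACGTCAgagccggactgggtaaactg

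The element begins 45 bases before the Th start and 4 bases before the Slc18a2 start. CACGTG was in Slc6a3 (7.15% of all promoters), TGCTGA in Drd4 and in 1 Ddc promoter (19.5%), and neither TAATCC (7.06%) nor GTAAACA (3.65%) in any of the 8 windows. A match is a description of the letters only, and the motifs were chosen with the values known.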

How the data were processed

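Whole-eye and hypothalamus RNA of WT and Per3-/- mice was hybridised by the authors to 1-colour Agilent arrays and read with Feature Extraction 10.7.1.1, per the file headers, which gives each spot's processed signal as a background-corrected intensity. The deposited series table holds log2 values, which proved to be log2 intensity relative to the 75th percentile, centred on each probe's median within the tissue (99.96% of eye and 100.0% of hypothalamus values within 0.05), and served as an alternative. Here log2 intensity minus the array's 75th percentile (1131 to 2207) was used for 41174 probes, after 36 to 91 spots an array flagged as uneven or outlying were left out, and spots of a probe were averaged. limma 3.58.1 in R 4.3.3 fitted genotype within each tissue, and tissue and their difference over 30 arrays, mice being a random block (correlation 0.059). Adjusted p is Benjamini-Hochberg over all probes, called under 0.05. Exact permutation tests were adjusted over 14 lead probes and correlations (100000 permutations, Python 3.11.15, scipy 1.17.1) over 42 pairs.

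Same-numbered WT and knockout eyes deviated together (r = 0.11 to 0.63 over 6 pairs) and were treated as paired in the block alternative. Same-numbered hypothalami did not all deviate together (r = -0.03 to 0.32 over 8). In both tissues the slide follows the mouse number, and its part in these correlations was not tested. On simulated probes the fit called 85% of eye and 97% of hypothalamus probes changed by 1 on the log2 scale, among 200 changed. The changed probes were drawn from those well above background on all arrays of the tissue. Only 0.13% and 1.01% of such hypothalamus probes had a larger SD than Slc6a3 and Th, so these shares do not describe those genes. Arrays have no read depth, and what limits precision here was not tested.

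Named were all probes of the 7 genes, Per3, Drd1, Drd3, list genes called between genotypes, the 4 highest and 4 lowest called pathway genes between tissues, 3 genes of each marker list, and the 5 probes most like Drd4 and Th in the eye. Some genes that this rule names are not reported here. Members and lists were chosen with earlier results of these data known.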

Additional observations from a re-analysis of the deposited data

Results flagged for a closer look

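In 48 checks, 12 probes in 4 groups, the highest or lowest mouse lay far from the rest of its group in 2, and chance flags about 5% of groups. Both were Per3-/- mouse 1 in the hypothalamus, the mouse with the most pituitary transcript. The second Drd2 probe read -2.21 there and -2.72 in the next mouse, a gap of 0.539 of the group's range. The second Drd4 probe read -4.98 there and -7.08 in the next, a gap of 0.635 of the range, and that array was the only hypothalamus array on which this probe was well above background. The part of pituitary tissue in either value was not tested.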

How the results depend on the processing

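No probe of the 7 genes was called between genotypes, or in the difference between tissues, under any setting, and 10 to 12 of 12 were called between tissues in each genotype over 23 settings. The replicate block left the genotype count at 0 in both tissues, and leaving the mouse block out, or making it fixed, left 12 called between tissues, so it changed no call. Same-numbered hypothalami shared a slide as well as a number. With arrays set to equal medians the lead Drd2 difference between tissues turned to -0.10 in WT and -0.13 in knockout. Under normexp the lead Slc18a2 and Drd2 calls in WT were lost (-0.49 and 0.26, limma adjusted p = 0.051 and 0.054).

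Small genotype differences changed sign, none of them called, and the cause was not tested. In the eye Th turned to 0.18 under normexp, 0.0048 under quantile scaling and 0.068 without slide 2. Ddc turned to 0.071 under normexp, to 0.0025 with the replicate block and without slide 1, 0.044 without slide 2 and 0.0050 without slide 4. Drd5 turned to 0.27 under normexp and 0.046 without slide 2, Slc18a2 to 0.014 without slide 4 and Slc6a3 to -0.10 without slide 3. In the hypothalamus, without slides 1, 3 and 4 in turn, Ddc went to -0.0026, -0.071 and -0.019, Slc18a2 to -0.0504, -0.13 and -0.0501, and Slc6a3 to -0.20, -0.33 and -0.18. Drd2 went to -0.066 without slide 1, and Drd4 to 0.15 without slide 2 and 0.081 without slide 4.

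Leaving out each mouse in turn, the eye differences ran from -0.094 to 0.047 for Th, -0.032 to 0.030 for Ddc, -0.16 to 0.068 for Slc18a2, -0.035 to 0.059 for Slc6a3 and -0.020 to 0.055 for Drd2. Those in the hypothalamus ran from -0.045 to 0.11 for Ddc, -0.074 to 0.16 for Slc18a2, -0.18 to 0.53 for Slc6a3, -0.054 to 0.14 for Drd2 and -0.15 to 0.060 for Drd4. The number of hypothalamic gene pairs called, 7 with all mice, ran from 4 (without Per3-/- mouse 4) to 9, an alternative chosen after seeing the data. Signal near background limits the second probes of Ddc in the eye and of Drd4 in the hypothalamus.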
